A study of Mus musculus with 2 samples.

Results

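The genes of the calcineurin, NFAT and GSK3 pathway were followed in mouse heart by RNA sequencing of total RNA, per gene and per transcript. The 10 genes were chosen by name: the calcineurin subunit genes Ppp3ca, Ppp3cb and Ppp3r1, the calcineurin regulators Rcan1 and Rcan2, the transcription factors Nfatc1, Nfatc2, Nfatc3 and Nfatc4, and the kinase gene Gsk3b. All 10 had values, with 23 transcripts listed of 72 annotated, out of 12395 genes and 23128 matched transcripts in all. Hearts of C57BL/6 mice were compared after 2 weeks of a mimic of CHAPIR, a heart piRNA (PIWI-interacting RNA), or of a scrambled mimic used as negative control (NC). An osmotic minipump implanted for 14 days delivered the CHAPIR mimic, at a dose of 30 mg/kg. The NC mimic was given by the same route, and the labels state no dose for it.

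Calcineurin is a phosphatase that calcium and calmodulin switch on. It removes phosphate from NFAT proteins in the cytoplasm, so that they enter the nucleus, and GSK3 kinases put phosphate back and return them to the cytoplasm. The pathway is best known in heart as a driver of hypertrophy, and CHAPIR has been studied as acting on it through the ADP-ribosyltransferase Parp10, Gsk3b and Nfatc4. These switches act on proteins, which RNA levels do not measure.

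Each group held 1 library, so there is no replicate, no test and no p-value, and every difference below describes these 2 hearts. Values are FPKM, read fragments per kilobase of a transcript relative to all fragments of the library, which can be compared between genes. Summed values were 401938 in the CHAPIR heart and 394675 in the NC heart. The Y-linked genes Ddx3y, Eif2s3y, Uty and Kdm5d were at 21.6, 22.1, 6.41 and 1.45 FPKM in the CHAPIR heart. All were listed at 0 in the NC heart. Y-linked expression, and so possibly the sex of the mice, differed together with the mimic, and these cannot be told apart. Cardiomyocyte markers (7 of 7 listed, including Myh6 and Tnnt2) summed to 14629.9 FPKM in the CHAPIR heart and 15342.9 FPKM in the NC heart, and 0 of 4 skeletal muscle markers were listed.

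Sequences are shown first for the places where listed transcripts of a gene part from each other. The catalytic subunit genes Ppp3ca and Ppp3cb each have a 30-base coding exon near the 3′ end that some transcripts hold and others skip. The exons lie at chr3:136932011-136932040 (plus strand) and chr14:20503247-20503276 (minus strand) of GRCm38. They are equal at 26 of 30 bases, and capitals mark the 4 that differ.
Ppp3ca 30-base exon: cTacTgttgaggctattgaggctgaTGaag
Ppp3cb 30-base exon: cCacAgttgaggctattgaggctgaAAaag

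A further Ppp3cb transcript, Ppp3cb-206, reads on into an intron and stops there. Its structure is that of the beta subunit variant known as CnAβ1, which lacks the autoinhibitory end of the protein. The 122 coding bases that it takes from the intron, at chr14:20508502-20508623 on the minus strand, are all specific to it among the listed transcripts.
Ppp3cb read-through: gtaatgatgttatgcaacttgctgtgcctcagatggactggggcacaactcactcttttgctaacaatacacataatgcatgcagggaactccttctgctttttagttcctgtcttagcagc

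Rcan1 has a distal start, used by Rcan1-202, and an internal start, used by Rcan1-201. The short isoform made from the internal start is a textbook calcineurin and NFAT target. The 250 bases before each start are shown because the transcripts from them had different ratios (RefSeq, GRCm38.p6, minus strand, chr16:92466170-92466419 and chr16:92400079-92400328). Capitals mark the NFAT core GGAAA on either strand.
Before the distal start: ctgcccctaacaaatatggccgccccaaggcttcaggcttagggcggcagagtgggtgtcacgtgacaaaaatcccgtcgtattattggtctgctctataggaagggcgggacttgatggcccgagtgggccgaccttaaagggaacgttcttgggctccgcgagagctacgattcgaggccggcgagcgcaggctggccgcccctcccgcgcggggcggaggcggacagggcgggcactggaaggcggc
Before the internal start: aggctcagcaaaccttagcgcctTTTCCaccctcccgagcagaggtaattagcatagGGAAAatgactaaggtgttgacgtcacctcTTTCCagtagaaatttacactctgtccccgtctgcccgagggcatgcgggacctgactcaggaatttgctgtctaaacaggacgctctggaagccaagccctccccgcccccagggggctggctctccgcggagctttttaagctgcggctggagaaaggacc

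The summed level of each gene lay within 1.5-fold between the 2 hearts. No gene of the 10 was 1.5-fold higher or lower. Of the 11416 genes tested, 6.81% were higher by that factor in the CHAPIR heart and 3.85% lower. A count over 10 genes is too coarse to set apart from these shares. Log2 ratios (CHAPIR over NC, each FPKM plus 1) ran from -0.22 for Rcan1 to 0.53 for Ppp3cb, 3 above 0 and 7 below. Their median was -0.04, beside 0.01 over all genes tested. Genes were tested where at least 1 library reached 1 FPKM, which all 10 did.

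**Figure D1:**
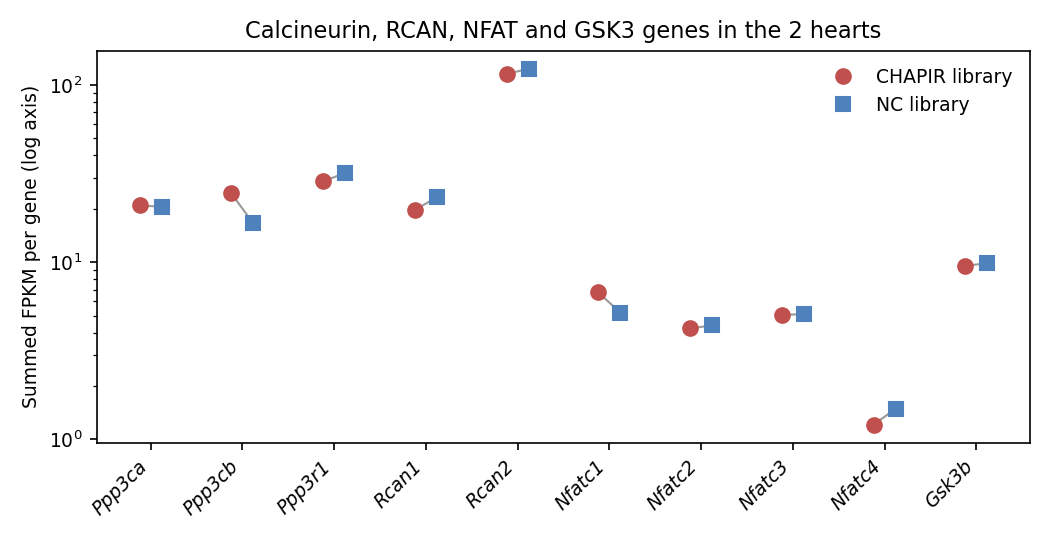
Summed FPKM per gene on a log axis, with 1 circle for the CHAPIR heart and 1 square for the NC heart. Symbols lie close together for most genes, with Rcan2 on top at 114.7 and 123 FPKM, Nfatc4 at the bottom at 1.21 and 1.49 FPKM, and the widest gap at Ppp3cb.

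Of the catalytic subunits, Ppp3ca (calcineurin A alpha; chromosome 3, 136670124 to 136937727) measured 20.9 FPKM in the CHAPIR heart and 20.5 FPKM in the NC heart. Ppp3cb (calcineurin A beta; chromosome 14, 20499364 to 20546573) measured 24.4 FPKM in the CHAPIR heart and 16.5 FPKM in the NC heart. It had the highest ratio of the 10, 1.48-fold with no pseudocount, and log2 ratios of the 500 genes nearest to it in level had an SD of 0.42. Ppp3cb was therefore the more abundant of the pair in the CHAPIR heart and the less abundant in the NC heart. The beta subunit is the one whose loss blunts cardiac hypertrophy in mice.

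The regulatory subunit gene Ppp3r1 (calcineurin B; chromosome 11, 17159263 to 17200375) measured 28.5 FPKM in the CHAPIR heart and 31.9 FPKM in the NC heart. It shares 462 exonic bases with Wdr92 on the same strand, and the rule by which reads there were assigned was not stated. The third catalytic gene, Ppp3cc, was at 9.88 and 11.3 FPKM, so the catalytic genes summed to 55.2 and 48.3 FPKM. Catalytic over regulatory RNA was 1.94 in the CHAPIR heart and 1.52 in the NC heart. Ppp3cb made up 44.2% of catalytic RNA in the CHAPIR heart and 34.2% in the NC heart, while Ppp3ca made up 37.9% and 42.4%.

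In both calcineurin A genes the estimated share of transcripts with the 30-base exon shown above differed, in opposite directions. In Ppp3ca, the transcript with the exon (Ppp3ca-201) was at 3.13 FPKM in the CHAPIR heart and 4.69 FPKM in the NC heart, and the one without it (Ppp3ca-202) at 17.8 and 15.8 FPKM. By these estimates the transcript with the exon made up 14.97% of Ppp3ca RNA in the CHAPIR heart and 22.9% in the NC heart. In Ppp3cb, transcripts with the exon (Ppp3cb-202 and Ppp3cb-205) summed to 13.3 FPKM in the CHAPIR heart and 5.41 FPKM in the NC heart. The transcript that skips it, Ppp3cb-201, was at 1.77 and 3.00 FPKM. Of the Ppp3cb transcripts that reach the last coding exon, 88.3% held the 30-base exon in the CHAPIR heart and 64.4% in the NC heart.

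By these estimates the gene-level difference of Ppp3cb lay mostly in the transcripts with the exon. Ppp3cb-205 was at 10.6 FPKM in the CHAPIR heart and 4.36 FPKM in the NC heart, a log2 ratio of 1.12. Ppp3cb-202 was at 2.68 and 1.06 FPKM, a log2 ratio of 0.84. The read-through transcript Ppp3cb-206 was at 9.29 and 8.12 FPKM, a log2 ratio of 0.17, and its share of Ppp3cb RNA was 38.1% in the CHAPIR heart and 49.1% in the NC heart. Ppp3cb-206 had 953 exonic bases held by no other listed transcript, all from an intron of the others. Unspliced RNA also holds those bases, and reads there were not examined. Ppp3cb-201 and Ppp3cb-205 had 0 bases of their own and were told apart by junctions, by combinations of exons and by where their outer exons end. The last exon ended at 46.543 kb in Ppp3cb-201, 46.705 kb in Ppp3cb-205 and 47.209 kb in Ppp3cb-202, from the 5′ end. Both transcripts with the 30-base exon thus also held 3′ sequence that Ppp3cb-201 lacks. How far the Ppp3cb shares rest on that sequence was not tested. In Ppp3ca the transcript with the exon had only the 30 bases of that exon to itself, while Ppp3ca-202 had 2594 bases of its own. The Ppp3ca shares can therefore rest largely on sequence outside the exon, and reads over the exon of either gene were not examined.

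**Figure D2:**
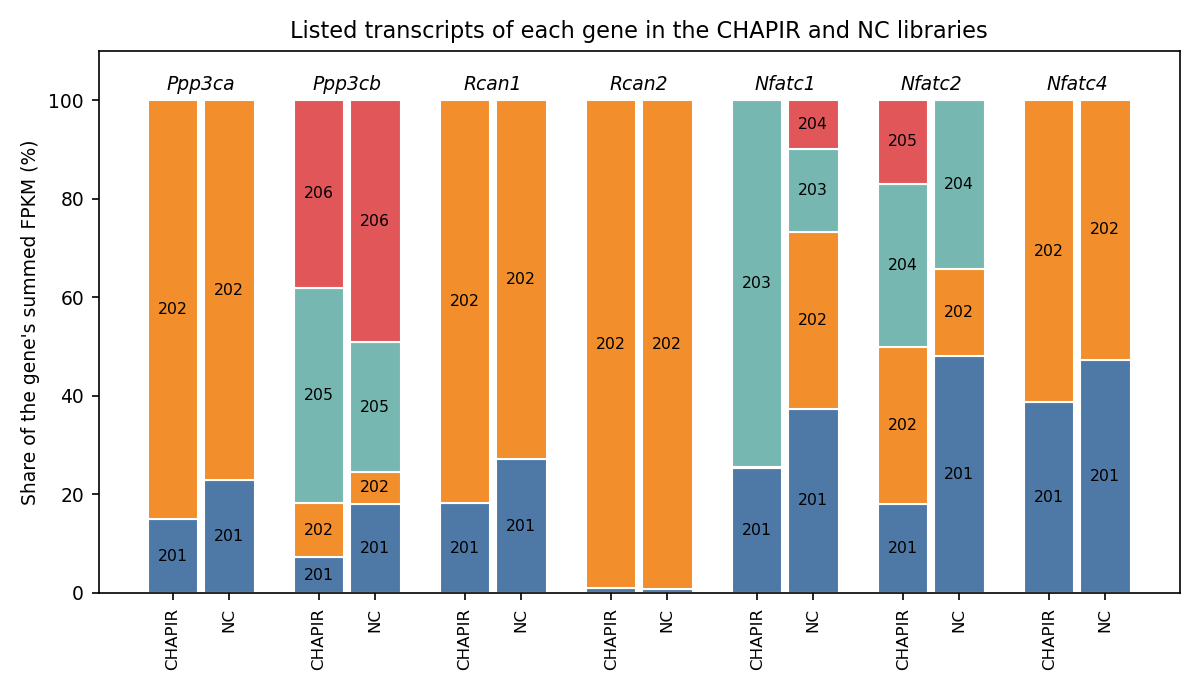
Stacked bars give the share of each listed transcript (numbered as in GENCODE) in the summed FPKM of its gene, with 1 bar for each library. Bars differ most between libraries for Nfatc1, Nfatc2 and Ppp3cb, and least for Rcan2.

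The regulator genes Rcan1 and Rcan2 were slightly lower in the CHAPIR heart, with log2 ratios of -0.22 and -0.10. RCAN proteins bind calcineurin and restrain it. Rcan2 (chromosome 17, 43801351 to 44039516) was by far the most abundant of the 10 genes, at 114.7 FPKM in the CHAPIR heart and 123 FPKM in the NC heart, and stood at the percentile 96.7 and 96.8 of all genes tested. Rcan1 (chromosome 16, 92391953 to 92470867) was at 19.7 and 23.2 FPKM, which made it the fifth of the 10 genes in the CHAPIR heart and the third in the NC heart. Together they summed to 134 and 147 FPKM, which is 2.44 times the summed catalytic RNA in the CHAPIR heart and 3.04 times in the NC heart.

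The lower level of Rcan1 lay in the short isoform. Rcan1-201, from the internal start, was at 3.597 FPKM in the CHAPIR heart and 6.29 FPKM in the NC heart, a log2 ratio of -0.67. Rcan1-202, from the distal start, was at 16.1 and 16.9 FPKM, a log2 ratio of -0.06. The short isoform made up 18.2% of Rcan1 RNA in the CHAPIR heart and 27.1% in the NC heart. The 2 transcripts share the last exons and differ in the first, with 182 bases specific to Rcan1-201 and 316 to Rcan1-202. Rcan2 showed no such difference: Rcan2-202 was at 113.6 and 122 FPKM and held 99.0% and 99.1% of Rcan2 RNA, while Rcan2-201 was at 1.14 and 1.07 FPKM.

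The windows before the Rcan1 starts differed in motif content. The NFAT core (GGAAA, or TTTCC on the other strand) stood 3 times in the 250 bases before the internal start, at bases 227 to 223, 193 to 189 and 163 to 159 upstream, and 0 times before the distal start. Of 32851 RefSeq promoter windows of the same length, 55.6% held the core at least once and 6.39% at least 3 times. The window before the internal start also held 1 AP-1 motif (TGANTCA, its own reverse complement, 110 to 104 bases upstream), which 6.75% of all windows held, and neither motif overlapped the other. A match is a description of these letters and not a measured site.

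Windows were found for 8 of the 10 genes, all but Nfatc1 and Ppp3ca. The NFAT core was in 7 of their 13 windows, a share of 53.8%, close to that of all promoters. It stood 3 times in 4 of the 13 windows, where 6.39% of all windows held it at least 3 times. These were the windows before Rcan1-201, before the start of Ppp3cb, before Nfatc4-201 and before the distal start of Nfatc2. The AP-1 motif was in 2 of the 13 windows, beside 6.75% of all windows. A GATA motif (AGATAA on either strand) was in 0, where 9.99% of all windows held one. The 13 windows are few, and no test was run on these counts.

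Among the NFAT genes, summed levels were within 1.5-fold. Of their transcripts that reached 1 FPKM, 3 (Nfatc1-202, Nfatc1-203 and Nfatc2-201) were not, with 1 added to each FPKM. Over all transcripts tested, 16.2% were higher and 13.7% lower by 1.5-fold or more. Nfatc1 (chromosome 18, 80606205 to 80713071), which acts in endocardium and valve formation and in lymphocytes, was at 6.75 FPKM in the CHAPIR heart and 5.18 FPKM in the NC heart, a log2 ratio of 0.33. Nfatc3 (chromosome 8, 106058840 to 106130537), a mediator of calcineurin-driven hypertrophy in mice, was at 5.02 and 5.10 FPKM. It shares 219 exonic bases with Esrp2 on the other strand. Nfatc2 (chromosome 2, 168476410 to 168601657), best known from T cells, was at 4.23 and 4.39 FPKM. Nfatc4 (chromosome 14, 55823144 to 55833943), named in the CHAPIR pathway, was the lowest of the 10 at 1.21 and 1.49 FPKM, at the percentile 5.81 and 10.7 of all genes tested. Their order from Nfatc1 down to Nfatc4 was the same in both hearts, and Nfatc1 and Nfatc3 lay side by side in the NC heart.

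Nfatc1 has a distal and a proximal start, and an early and a late end. In lymphocytes the distal start is known as the inducible one that NFAT itself drives. Transcripts from the distal start (Nfatc1-202 and Nfatc1-204) summed to 0.0176 FPKM in the CHAPIR heart and 2.37 FPKM in the NC heart, or 0.261% and 45.7% of Nfatc1 RNA. Transcripts from the proximal start (Nfatc1-201 and Nfatc1-203) summed to 6.73 and 2.81 FPKM. Over the listed transcripts, RNA from the distal start was thus nearly confined to the NC heart. Another annotated transcript from that start, Nfatc1-206, was not analysed here.

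By transcript, Nfatc1-203 was at 5.03 FPKM in the CHAPIR heart and 0.877 FPKM in the NC heart, and Nfatc1-202 at 0.0176 and 1.86 FPKM. Nfatc1-204 was listed at 0 in the CHAPIR heart and at 0.510 FPKM in the NC heart. The short transcript with the early end, Nfatc1-201, was at 1.71 and 1.94 FPKM. Nfatc1-203 and Nfatc1-204 had 0 exonic bases of their own among the listed transcripts, and Nfatc1-202 had 292, against 2397 for Nfatc1-201. The log2 ratio of Nfatc1 was 1.68 when only its most abundant transcript, Nfatc1-203, was read in place of the sum.

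**Figure D3:**
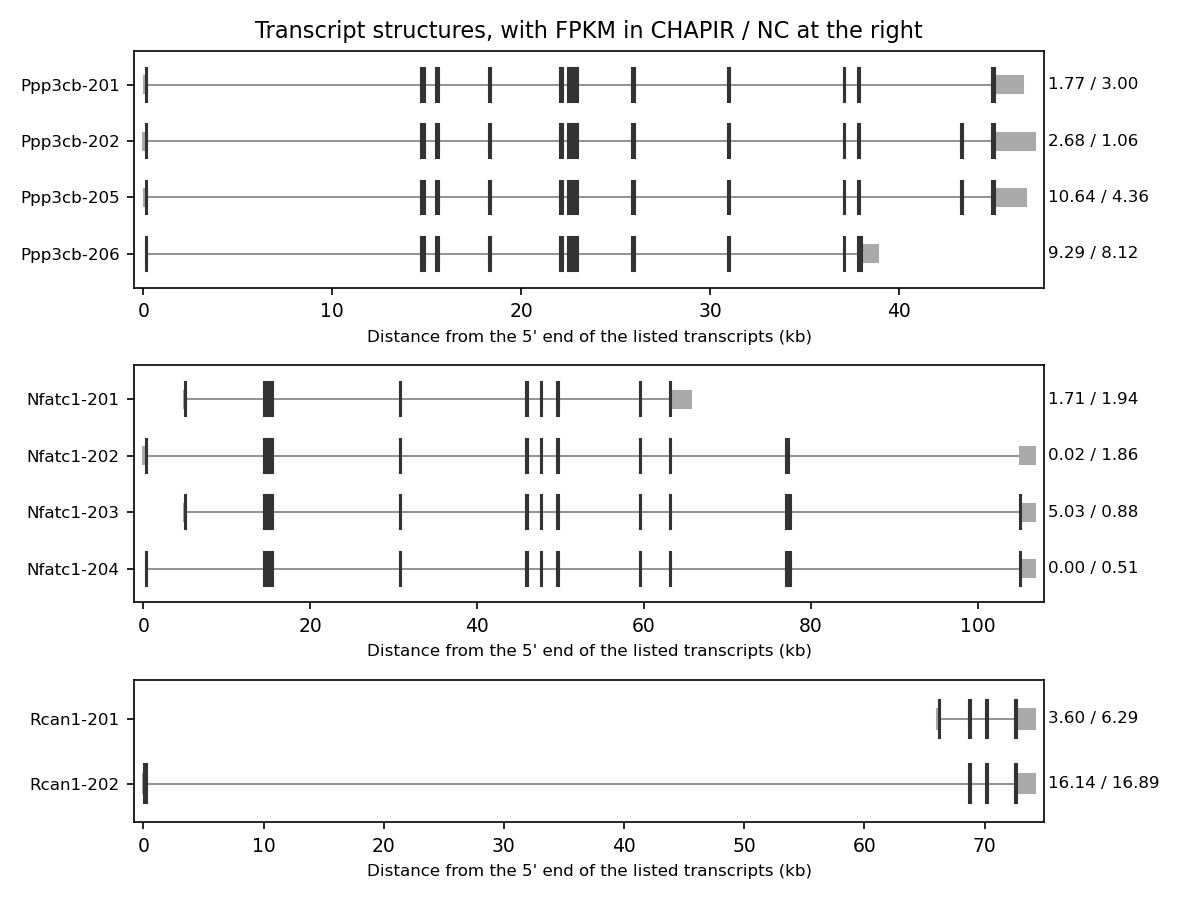
Exons of the listed transcripts of Ppp3cb, Nfatc1 and Rcan1 by distance in kb from the 5′ end, with coding parts tall and dark and other exonic parts low and grey (small exons are widened to be seen), and FPKM in CHAPIR and NC at the right. Ppp3cb-206 ends early, Nfatc1-202 and Nfatc1-204 start upstream of Nfatc1-201 and Nfatc1-203, and Rcan1-201 starts inside the gene.

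Nfatc2 also differed by transcript with nearly equal sums. Nfatc2-201, the short transcript, was at 0.761 FPKM in the CHAPIR heart and 2.11 FPKM in the NC heart, a log2 ratio of -0.82. Nfatc2-202 was at 1.35 and 0.772 FPKM, and Nfatc2-204, the other long transcript, at 1.40 and 1.51 FPKM. Nfatc2-205, the short transcript from the distal start, measured 0.721 FPKM in the CHAPIR heart and had a listed value of 0 in the NC heart. Short transcripts made up 34.99% of Nfatc2 RNA in the CHAPIR heart and 48.0% in the NC heart. Nfatc2-201 and Nfatc2-202 had 0 exonic bases of their own among the listed transcripts, Nfatc2-204 had 191 and Nfatc2-205 had 189. All these values are low, and how far the assignment of reads between transcripts shaped them was not tested. In Nfatc4 the leading transcript was the same in both hearts, with Nfatc4-202 at 0.742 and 0.787 FPKM and Nfatc4-201 at 0.468 and 0.707 FPKM. A single transcript was listed for Nfatc3, Ppp3r1 and Gsk3b, so nothing can be said of their isoforms.

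Gsk3b (chromosome 16, 38089001 to 38246084), the kinase that rephosphorylates NFAT, was at 9.53 FPKM in the CHAPIR heart and 9.86 FPKM in the NC heart, 3.38% lower. Its paralog Gsk3a was at 28.3 and 31.1 FPKM, or 2.97 and 3.16 times Gsk3b. The kinase genes thus kept nearly the same proportion in both hearts.

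The counts of transcripts past 1.5-fold were near the shares over all transcripts. Folds were taken with 1 added to each FPKM. Of the 23 transcripts, 19 reached 1 FPKM in at least 1 library. Of these, 3 were higher by 1.5-fold or more in the CHAPIR heart (Nfatc1-203, Ppp3cb-202 and Ppp3cb-205), or 15.8%, beside 16.2% of all 18413 transcripts. Another 3 were at least 1.5-fold lower (Nfatc1-202, Nfatc2-201 and Rcan1-201), also 15.8%, beside 13.7% of all. The leading transcript differed between the hearts in 3 of the 7 genes with 2 or more listed transcripts (Ppp3cb, Nfatc1 and Nfatc2). That is 42.9%, beside 26.7% of 5613 such genes. A share over 7 genes is too coarse to set apart from that of all genes.

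The composition shift is the percentage of a gene's RNA that would have to pass from some transcripts to others to turn one heart's shares into the other's. It was 57.5 points for Nfatc1, 31.4 for Nfatc2 and 21.9 for Ppp3cb. It lay between 7.88 and 8.91 points for Ppp3ca, Nfatc4 and Rcan1, and was 0.120 points for Rcan2. A shift of at least 20 points was seen in 3 of the 7 genes and in 40.6% of all such genes, whose median was 14.3 points. The count of such shifts for these genes is therefore near that of all genes. By this measure no larger isoform difference is shown for the pathway than for others.

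**Figure D4:**
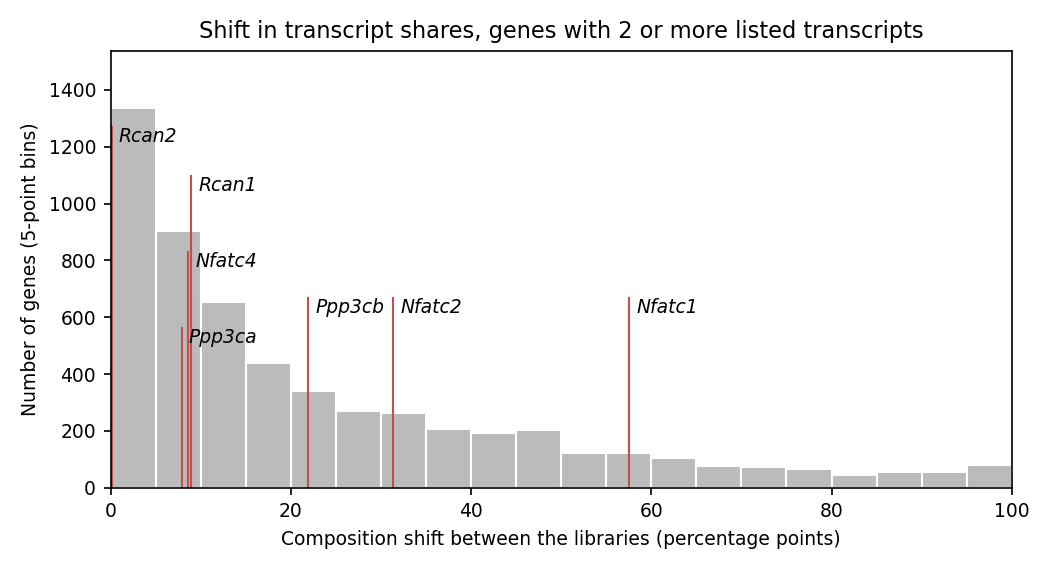
Histogram of the composition shift in percentage points (bins of 5 points) over 5613 genes with 2 or more listed transcripts, with the 7 pathway genes as red lines. Nfatc1 lies in the long tail at 57.5 points, and Ppp3ca, Nfatc4, Rcan1 and Rcan2 lie below the median of 14.3 points.

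Other genes of the pathway were described from lists of upstream, regulatory and target genes, with 1 again added to each FPKM for the fold counts. Of 105 genes, 92 were listed and 89 reached 1 FPKM, with 6 at least 1.5-fold higher, 3 at least 1.5-fold lower and a median log2 ratio of 0.00. That is 6.74% higher and 3.37% lower, near the shares of all genes. Of the genes for calcineurin subunits and calmodulin, 0 of 4 passed 1.5-fold, from Calm3 (59.9 against 67.9 FPKM) to Calm2 (92.7 against 79.3 FPKM).

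Among 15 regulators and anchors of calcineurin, 1 was higher and 1 lower. Rcan3, the third RCAN gene, was at 2.49 FPKM in the CHAPIR heart and 0.997 FPKM in the NC heart. Csrp3, a Z-disc protein that binds calcineurin, was at 329 FPKM in the CHAPIR heart and 576 FPKM in the NC heart. The 3 RCAN genes thus did not share a direction. Among 13 NFAT kinases, Mapk9 (the stress kinase JNK2) was the 1 past 1.5-fold, at 9.05 against 4.09 FPKM, and Mapk8 was the lowest at 9.09 against 10.7 FPKM.

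Of 13 genes for NFAT partners and transport, 2 were higher and 0 lower. They were the AP-1 genes Fos (20.7 against 3.77 FPKM) and Jun (26.6 against 15.4 FPKM), whose products bind DNA together with NFAT. Gata4, a cardiac partner of Nfatc4, was lowest at 26.7 against 33.5 FPKM. Of 19 genes for calcium entry and upstream receptors, the channel gene Trpc1 was the 1 past 1.5-fold, at 2.58 against 1.27 FPKM, and Itpr3 was lowest at 1.63 against 2.004 FPKM.

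Of 18 GSK3 regulators and substrates, 1 was higher and 2 lower. Apc, a scaffold of the complex in which GSK3 marks beta-catenin for breakdown, was at 7.003 FPKM in the CHAPIR heart and 3.07 FPKM in the NC heart. Ctnnb1, which encodes beta-catenin, was at 12.9 and 27.3 FPKM, and Dvl1, a Wnt signal relay that restrains that complex, at 5.002 and 8.49 FPKM. GSK3 controls beta-catenin as a protein, and these are RNA levels. Only 1 of 9 annotated Apc transcripts and 2 of 15 Ctnnb1 transcripts were listed.

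Of the cardiac NFAT targets, 0 of 6 passed 1.5-fold, with 3 above 0 and 3 below. Myh7, the fetal myosin heavy chain, was highest at 335 against 234 FPKM, and skeletal actin Acta1 was lowest at 108 against 153 FPKM. Of 10 lymphoid NFAT targets 2 were listed, of which Ptgs2 reached 1 FPKM, at 1.08 against 0.620 FPKM, and Tnf was at 0.647 against 0.114 FPKM.

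**Figure D5:**
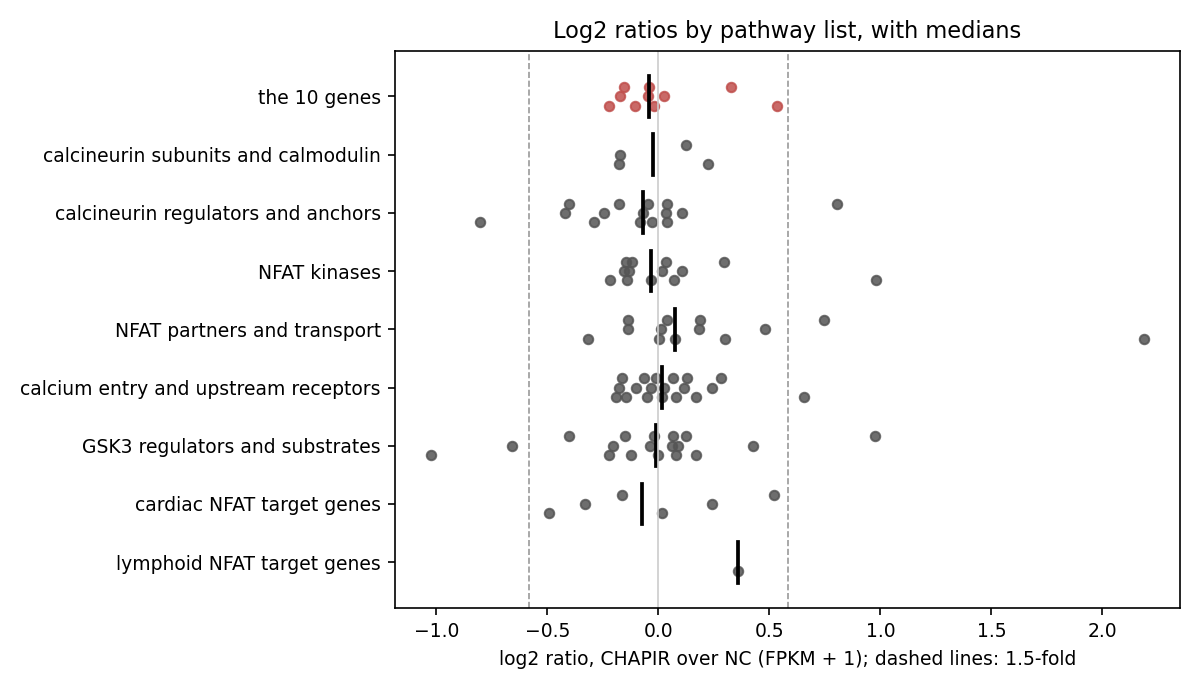
Log2 ratios (CHAPIR over NC, FPKM plus 1), with 1 point per gene that reached 1 FPKM, black bars at list medians and dashed lines at 1.5-fold. The 10 genes (red) all lie between the dashed lines, and Fos, at a log2 ratio of 2.19, lies farthest out among the listed genes.

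Several NFAT genes are expressed outside cardiomyocytes, and markers of other cells differed between these hearts. In bulk tissue, fewer cells of a type and less RNA per cell cannot be told apart. Endothelial markers (6 of 6 listed) summed to 200.1 FPKM in the CHAPIR heart and 183 FPKM in the NC heart, and endocardial markers (3 of 3) to 36.4 and 46.4 FPKM. The endocardial gap lay mostly in Cytl1 (13.5 against 22.5 FPKM). Npr3 (10.6 against 11.0 FPKM) and Vwf (12.3 against 12.9 FPKM) were nearly equal. T and NK cell markers (4 of 6 listed) summed to 6.09 and 2.59 FPKM, and B cell markers (2 of 4) to 1.64 and 1.54 FPKM. Macrophage markers (6 of 6) summed to 209.9 and 123 FPKM, and platelet markers (4 of 4) to 50.1 and 16.4 FPKM.

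Fibroblast markers (6 of 6) summed to 556 and 482 FPKM, and smooth muscle and pericyte markers (6 of 6) to 290.1 and 327 FPKM. Directions were mixed within both lists. Of the fibroblast markers 4 were higher and 2 lower, and of the smooth muscle and pericyte markers 2 were higher and 4 lower. The largest single parts were Dcn (435 against 370 FPKM) and Rgs5 (161 against 149 FPKM). Adipocyte markers (5 of 5) summed to 425 and 449 FPKM, most of it Fabp4 (422 against 423 FPKM). The other 4 were at least 1.5-fold lower, as were 3.85% of all genes, with Ucp1 listed at 0 in the CHAPIR heart. The part of these cells in the values of Nfatc1, Nfatc2 and the other genes was not tested.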

How the data were processed

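The deposited table held 1 value per Ensembl transcript for each of 2 libraries, read as FPKM computed by the authors. The unit is inferred from the values, since the header names none (FPKM times length in kb summed to 739668 and 732588). If they were TPM, ratios would change by 1 factor per library. Cutadapt, HISAT2 2.0.5, StringTie, STAR 2.5.2b and GRCm38 were named, without roles, in the submitters' processing notes. Depth is unknown, so no counting interval is given.

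Of 23178 identifiers, 23128 matched GENCODE M21 on GRCm38 without the version, and 50 did not and were left out. Every listed transcript reached 0.500 FPKM in at least 1 library. Transcripts below that were not analysed here. Values were summed per gene with pandas 2.3.3 in Python 3.11.15. Log2 ratios used a pseudocount of 1, which understates the change of low genes. The exonic bases of each transcript were taken from GENCODE. Calculations were tested on simulated data.

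The members, lists and rules were chosen with earlier results of these data known. Named are all members and their transcripts, and of each list the highest, the lowest and those past 1.5-fold; single markers and other genes were named after their values were seen. Alternatives were other pseudocounts, filters, fold thresholds and scalings, and the most abundant transcript in place of the sum.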

Additional observations from a re-analysis of the deposited data

How the results depend on the processing

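No paired analysis was possible because a single heart was sequenced for each mimic, and for the same reason no library could be left out. Of the 10 genes, 0 were 1.5-fold higher or lower. At the lowest fold threshold tried 2 were higher, and reading only the most abundant transcript 1 was, Nfatc1, while the log2 ratio of Ppp3cb became 0.17. The median log2 ratio of the 10 moved by less than 0.1 under each alternative that could move it. Of their transcripts, 3 were higher and 3 lower. With a pseudocount of 5, 0 were lower, with a mean of at least 5 FPKM 1 was higher and 0 lower (fewer transcripts tested), and 5 were lower at the lowest fold threshold and 1 at 2-fold. Of the pathway genes, 6 were higher and 3 lower. They became 10 and 8 at the lowest fold threshold and 1 and 1 at 2-fold. With a pseudocount of 0.1, or the most abundant transcript only, 5 were lower, and with a pseudocount of 5, 3 were higher. The cause of the changes that a threshold or a smaller number tested does not set was not tested. Of 1009 values of single genes and transcripts under the alternatives, 993 moved by less than the SD of log2 ratios at that level and 16 by more, and 0 of those past 1.5-fold changed sign. No scaling moved the median of all genes by 0.1 or more. How much depth limits these values is unknown.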

Other observations

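Single transcripts also differed in a few other genes of the pathway, chosen after their values were seen. Fkbp1a encodes the immunophilin through which tacrolimus inhibits calcineurin, and its sum was 62.96 FPKM in the CHAPIR heart and 61.2 FPKM in the NC heart. Fkbp1a-201 was at 7.38 FPKM in the CHAPIR heart and 58.2 FPKM in the NC heart, and Fkbp1a-205 was at 55.6 and 3.02 FPKM, a composition shift of 83.3 points. In Mapk9, whose sum was 9.05 and 4.09 FPKM, Mapk9-204 was at 4.73 and 0.271 FPKM and Mapk9-201 at 0.644 and 1.57 FPKM. In Plcb4, a phospholipase gene upstream of calcium release, Plcb4-206 was at 2.95 and 6.85 FPKM. Over the 51 pathway genes with 2 or more listed transcripts, the leading transcript differed in 8, or 15.7%, beside 26.7% of all such genes. A shift of at least 20 points was seen in 14, or 27.5%, beside 40.6% of all, so both shares lay below those of all genes.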
